A study of Mus musculus with 28 samples.

Results

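Transcripts of 4 genes of the interleukin-10 (IL-10) family were followed through 6 treatments of mouse macrophages: the cytokines Il10 and Il19 and the receptor chains Il10ra and Il10rb. They were picked by name from the 27670 gene names of a single-colour oligonucleotide array, and each is represented by its brightest probe, judged by the mean processed signal over all arrays. All 4 passed the filter on dim probes, which asked for a signal well above background on at least 3 of 28 arrays. Il10, Il10ra and Il10rb were well above background on every array and Il19 on 18.

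The cells were bone marrow-derived macrophages, which are marrow cells grown into macrophages with the growth factor CSF1. Marrow came from C57BL6/J mice of 8 to 12 weeks, named in the labels as 2 males and 1 female, and cells of several animals were pooled. All groups received human recombinant CSF1 at 200 ng/ml. From day 7 the cells were left unprimed or were primed for 18 h with interleukin-4 (IL-4, 10 ng/ml) or interferon-γ (IFN-γ, 100 U/ml), and each state was taken with or without bacterial lipopolysaccharide (LPS, 10 ng/ml) for the last 4 h. This gave 7 untreated arrays, 7 with LPS alone, 4 with IL-4, 4 with IL-4 and LPS, 3 with IFN-γ and 3 with IFN-γ and LPS. The series text speaks of independent experiments, and the arrays carry experiment letters (both IL-4 groups hold A, B, C and G, both IFN-γ groups E to G, and the unprimed groups all letters from A to G). Because animals were pooled, the p-values describe the spread between these cultures and not between animals.

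IL-10 is a cytokine that macrophages release after contact with microbial products and that restrains their own production of inflammatory cytokines. It binds IL-10RA, the ligand-specific chain encoded by Il10ra, which then joins IL-10RB, a chain shared with the receptors for IL-22 and the λ interferons. The kinases JAK1 and TYK2 on these chains activate STAT3, whose target SOCS3 is a feedback inhibitor of cytokine receptors. IL-19 belongs to the IL-20 branch of the family and signals through the chains encoded by Il20ra and Il20rb, not through the IL-10 receptor. IL-4 and IFN-γ are the classical priming signals of alternatively activated and inflammatory macrophages.

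The labelled cell type was checked against its markers, and 6 of 6 macrophage marker genes were well above background on all 28 arrays. Of the markers of other cells, 2 of 5 for T cells, 4 of 5 for B cells, 5 of 6 for neutrophils, 3 of 4 for dendritic cells, 1 of 4 for fibroblasts and 0 of 3 each for NK and mast cells were so on all arrays. Some of these moved with treatment. The summed T-cell markers were 0.189 to 0.430 times the 75th percentile in untreated cells and 1.40 to 4.98 after LPS, dendritic-cell markers 0.273 to 0.482 and 1.29 to 8.14, and B-cell markers 1.17 to 2.42 after LPS and 3.16 to 7.16 after IL-4 and LPS. These differences came mostly from Lck, Zbtb46 and Cd79b. On the log2 scale mean Lck was -4.30 in untreated cells and 0.80 after LPS, and Zbtb46 -3.37 and 1.44. Mean Cd79b was 0.24 after LPS and 2.21 after IL-4 and LPS, and the other markers of these cells moved by less. The macrophage sum was 346 to 501 in untreated cells and 622 to 778 after LPS. The part of other cells in the results was not tested. Retnla and Arg1, known to mark IL-4 priming, were higher on every array with IL-4 than on any other, and Cxcl9 and Gbp2b, known to mark IFN-γ, were higher on every array with IFN-γ than on any other. The deposited value table goes against the scanner files: 26 of its 28 columns matched the scanner file of another sample best, 13 of them one of another group. The scanner files, whose groups the markers bear out, are used here, and the experiment letters are those of their labels. Arrays of 1 group correlated at 0.940 to 0.991 across genes, and 60.0% to 78.5% of probes were well above background per array. Levels below are log2 signals minus the array's own 75th percentile, so 0 is that percentile, and levels of different genes are not compared because probes differ in brightness. A gene is called where limma's moderated test gives a Benjamini-Hochberg adjusted p under 0.05 over the 22452 genes tested, and ± marks the SD for levels and the SE for differences. Fewer cells of a type and less RNA per cell cannot be told apart in such bulk RNA.

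**Figure D1:**
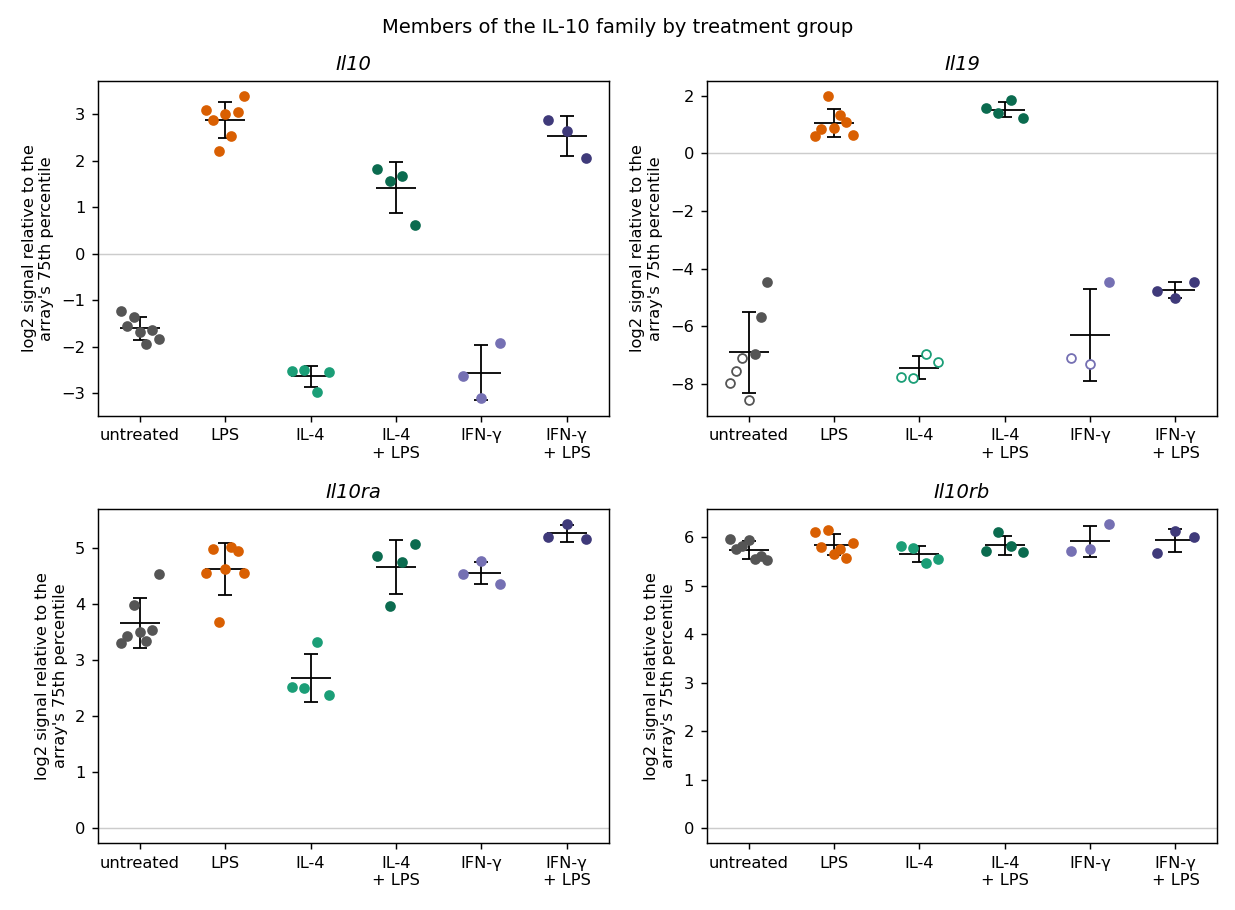
Each point is 1 array, the horizontal bar is the group mean and the whisker the SD (n = 7, 7, 4, 4, 3 and 3), on the log2 scale relative to the array's 75th percentile. Open points mark arrays where the probe was not well above background. Il10 is high in all 3 LPS groups, Il19 is high in LPS and IL-4 + LPS but not in IFN-γ + LPS, Il10ra is lowest with IL-4 alone, and Il10rb stays between 5.47 and 6.28.

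Il10 rose after LPS in every priming state, and its level after LPS was lower in IL-4-primed cells than in unprimed or IFN-γ-primed cells. In untreated cells its level was -1.93 at the lowest, -1.64 at the median and -1.23 at the highest of 7 arrays, and after LPS it was 2.20, 3.00 and 3.39. These groups did not overlap. LPS raised Il10 by 4.48 ± 0.21 on the log2 scale, a 22.3-fold rise (limma, adjusted p = 9.47e-15). Of the 4 members 3 were called in this comparison, all higher, where 42.4% of all genes tested were called in either direction.

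Il10 was called lower with each priming signal alone. The levels with IL-4 were -2.51, -2.51, -2.97 and -2.53 in experiments A, B, C and G, below every untreated array. The difference from untreated was -1.03 ± 0.25 (limma, adjusted p = 0.00592), and 2 of 4 members were called here, both lower, against 11.3% of all genes. With IFN-γ the levels were -2.63, -3.11 and -1.92 in experiments E, F and G, and the highest of them lay within the untreated range. The difference was -0.95 ± 0.27 (limma, adjusted p = 0.0112), with 2 of 4 members called, 1 lower and 1 higher, against 25.9% of all genes. The median of all genes stood at -0.29 in this comparison, and relative to it the Il10 change was -0.66. Both calls depended on the processing. That for IL-4 was lost with normexp background correction (-0.52, adjusted p = 0.851), slide as a block (-0.86, adjusted p = 0.106) and median scaling (-0.94, adjusted p = 0.0839). That for IFN-γ was lost with scaling to the array median (-0.50, adjusted p = 0.331) or without the IFN-γ array of experiment F (-0.67, adjusted p = 0.126) or E (-0.91, adjusted p = 0.0542). Normexp background correction (-0.91, adjusted p = 0.114) and quantile normalization (-0.75, adjusted p = 0.0548) lost it as well. So did the experiment letter as a block (-0.83, adjusted p = 0.0641) and only the experiments that hold both groups (-0.75, adjusted p = 0.193).

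From these lower starting levels LPS again raised Il10. The levels with IL-4 and LPS were 1.83, 1.56, 1.68 and 0.62 in experiments A, B, C and G, of which experiment G was the lowest. Within IL-4-primed cells the LPS change was 4.05 ± 0.28, or 16.6-fold (limma, adjusted p = 2.06e-11), and 3 of 4 members were called, all higher, against 31.3% of all genes. The levels with IFN-γ and LPS were 2.89, 2.64 and 2.06 in experiments E, F and G, inside or just below the range of LPS alone. Within IFN-γ-primed cells the LPS change was 5.08 ± 0.32, or 33.8-fold (limma, adjusted p = 2.24e-10), and Il10 was the only member called, against 12.0% of all genes.

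After LPS, Il10 was lower with IL-4 priming than without it, by -1.45 ± 0.25 on the log2 scale or 2.74-fold (limma, adjusted p = 2.57e-04). No array of IL-4 and LPS reached the lowest array of LPS alone. Il10 was the only one of 4 members called here, against 8.97% of all genes. The difference kept its sign on each of 4 slides that held both groups, from -2.26 to -0.64. It was of the same size but not called when the fit was limited to the experiments that held both groups (-1.47, adjusted p = 0.0973). IFN-γ priming left a difference of -0.35 ± 0.27 after LPS that was not called (adjusted p = 0.411, 95% interval -0.91 to 0.22). Set against each other after LPS, IL-4-primed cells differed from IFN-γ-primed cells by -1.11 ± 0.30 (limma, adjusted p = 0.00776). This call was lost with slide as a block (-0.70, adjusted p = 0.277) and without the IFN-γ and LPS array of experiment E (-0.93, adjusted p = 0.0625).

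The size of the LPS change in Il10 was not shown to differ between priming states. The change in IL-4-primed cells minus that in unprimed cells was -0.43 ± 0.35 (adjusted p = 1.00, 95% interval -1.15 to 0.30), and the same difference for IFN-γ was 0.60 ± 0.39 (adjusted p = 0.493, interval -0.19 to 1.40). The LPS change after IL-4 minus that after IFN-γ was -1.03 ± 0.43 (limma, adjusted p = 0.224). With array weights this difference (-1.27, adjusted p = 0.00618) and that for IFN-γ (0.90, adjusted p = 0.0245) were called. The order of the group means was LPS, IFN-γ and LPS, IL-4 and LPS, untreated, IFN-γ, IL-4. The ranges of LPS and of IFN-γ and LPS overlapped, as did those of untreated and IFN-γ and those of IFN-γ and IL-4. The Il10 probe was printed 10 times per array, and the SD over these spots was 0.069 at the median array and 0.553 at the widest.

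**Figure D2:**
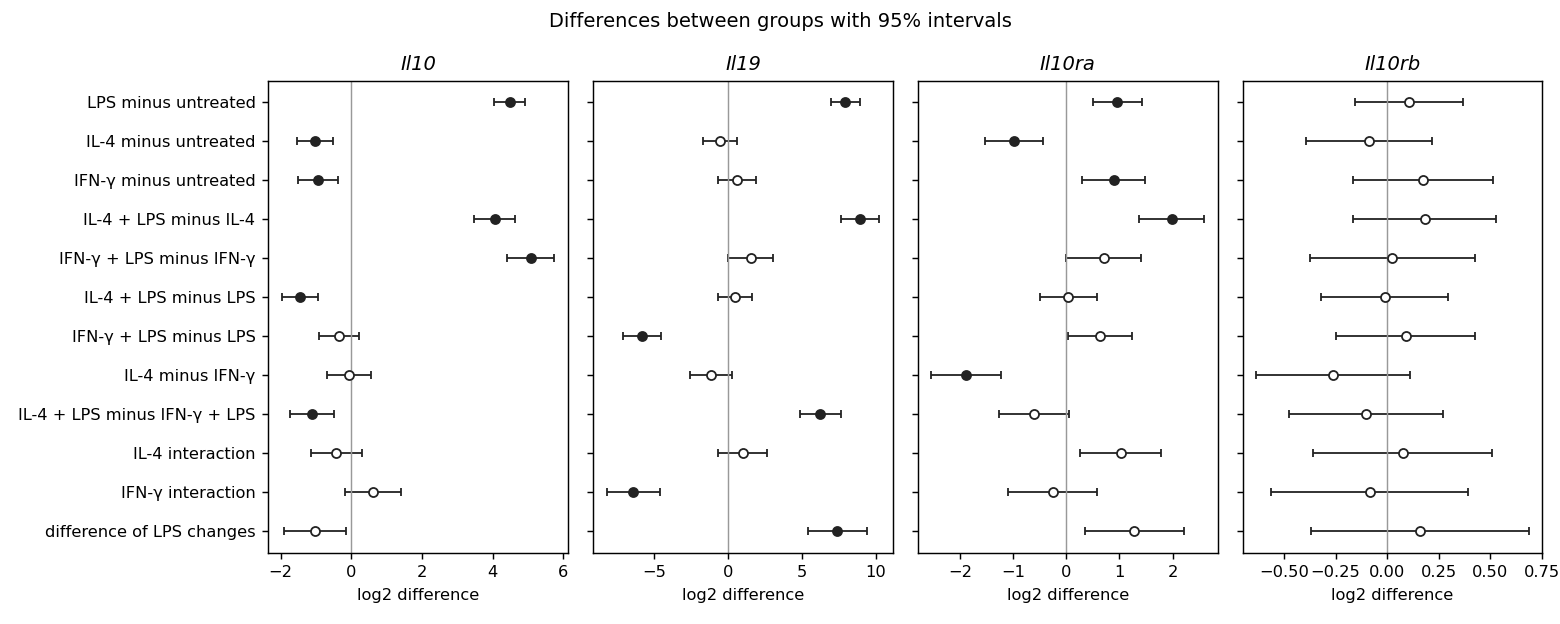
Points are log2 differences of group means with 95% intervals from the model of all 28 arrays, for 12 comparisons of each member. Filled points were called at adjusted p under 0.05. Il10rb has no filled point, and the interaction of IFN-γ with LPS is filled for Il19 only.

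Il19 lies next to Il10 on mouse chromosome 1, and in the RefSeq gene order for GRCm38 the run is Pigr, Fcmr, Il24, Il20, Il19, Il10 and Mapkapk2. Il19 rose after LPS in unprimed and IL-4-primed cells, and it was the only member whose LPS change was called as different between priming states. The 250 bases before its RefSeq start (GRCm38.p6, chr1:130940116-130940365, minus strand) are shown because Il19 moved with Il10 under LPS but not under IFN-γ and LPS. Capitals mark, from 5′ to 3′, a match to the STAT motif, a match to the interferon response motif and a match to the NF-kappaB consensus.
Il19 promoter: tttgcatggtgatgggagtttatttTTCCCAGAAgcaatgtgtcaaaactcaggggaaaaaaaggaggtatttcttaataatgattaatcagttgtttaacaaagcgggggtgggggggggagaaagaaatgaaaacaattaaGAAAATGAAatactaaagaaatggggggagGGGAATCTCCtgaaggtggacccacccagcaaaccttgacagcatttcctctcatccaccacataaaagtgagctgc
The motifs were searched on both strands as TTCNNNGAA for STAT, GAAANNGAA for interferon response and the NF-kappaB consensus by name. Matches to them were held by 7.02%, 7.13% and 3.90% of 32851 mouse promoters cut in the same way. There were also 2 overlapping matches to the C/EBP motif TTGNNNAA, which 33.3% of promoters hold. No match was found to the AP-1 motif TGANTCA (in 6.75% of promoters), the cAMP response element TGACGTCA (1.55%) or its first part TGACG (17.8%), or the Sp1 motif GGGCGG (32.7%). These are matches of letters in this window, and binding was not measured.

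In untreated cells Il19 was well above background on 3 of 7 arrays, with levels of -8.57 at the lowest, -7.11 at the median and -4.46 at the highest. After LPS all 7 arrays were above background, at 0.60, 0.89 and 1.98, with no overlap. LPS raised Il19 by 7.95 ± 0.48 on the log2 scale, or 248-fold (limma, adjusted p = 6.58e-13). The size rests on dim untreated signals, and with normexp background correction the change was 4.23 (adjusted p = 1.01e-07). On 5 slides that held both groups it ran from 7.71 to 9.93. These slides leave out the untreated arrays of experiments F and G, which had the highest untreated Il19 levels. Within scan days the change ran from 5.80 to 9.19.

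Il19 also rose in IL-4-primed cells. With IL-4 alone no array was well above background, at -7.75, -7.78, -6.96 and -7.24 in experiments A, B, C and G. With IL-4 and LPS the levels were 1.57, 1.39, 1.84 and 1.23. In these levels the rise was at least 152-fold over the floor set by the lowest signals well above background (limma, adjusted p = 3.09e-11 for the measured difference). The smallest rise under other processing was 4.32 on the log2 scale and was called, so this bound holds only for the processing used here. IL-4 and LPS did not differ from LPS alone beyond the spread, at 0.45 ± 0.56 (adjusted p = 0.777, 95% interval -0.71 to 1.61).

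IFN-γ-primed cells stood apart in Il19. With IFN-γ alone the levels were -7.10, -7.31 and -4.45 in experiments E, F and G, and only that of G was well above background, with no called difference from untreated cells (0.61, limma, adjusted p = 0.479). With IFN-γ and LPS they were -4.77, -5.02 and -4.47, all above background, and the change of 1.53 ± 0.73 was not called (limma, adjusted p = 0.210, 95% interval 0.03 to 3.04). It was called without the IFN-γ array of experiment G (2.45, adjusted p = 0.0352), with slide as a block (1.53, adjusted p = 0.0114) and with array weights (2.13, adjusted p = 0.00165). After LPS, Il19 was lower with IFN-γ priming than without, by -5.81 ± 0.62 on the log2 scale or 56.0-fold (limma, adjusted p = 2.66e-07). Under other processing this difference ran from -6.16 to -3.39 and stayed called, so its size depended on the processing. The highest array of IFN-γ and LPS lay below the lowest of LPS alone, and on 2 slides with both groups the difference was -5.66 and -5.38. Il19 was the only member called in this comparison, against 22.8% of all genes. IL-4-primed cells exceeded IFN-γ-primed cells after LPS by 6.26 ± 0.68, or 76.6-fold (limma, adjusted p = 2.62e-07), and by 3.82 to 6.51 under other processing. Here 2 of 4 members were called, Il19 higher and Il10 lower, against 25.6% of all genes.

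The LPS changes themselves were compared next. The LPS change in IFN-γ-primed cells minus that in unprimed cells was -6.42 ± 0.87 (limma, adjusted p = 2.61e-05), and Il19 was the only member called, against 8.33% of all genes. The LPS change after IL-4 minus that after IFN-γ was 7.40 ± 0.97 in the fit (limma, adjusted p = 1.07e-05), again with Il19 the only member called, against 5.44% of all genes. That size has no exact meaning because no IL-4 array was above background, and with the IL-4 level put at its floor the difference was 5.71. The LPS-change differences for IFN-γ against unprimed and for IL-4 against IFN-γ kept their sign but not their call with normexp background correction, at -2.80 (adjusted p = 0.0776) and 2.89 (adjusted p = 0.154). The IFN-γ arrays without LPS already held other LPS-responsive transcripts, with Ptgs2 levels of 0.65 to 4.40 against -7.44 to -5.33 in untreated cells, and the part of this in the smaller LPS changes was not tested. For the difference between IL-4-primed and unprimed cells limma called none of 4 members, against 1.59% of all genes, while 1 member, Il10ra, had an unadjusted p under 0.05. The order of the Il19 means was IL-4 and LPS, LPS, IFN-γ and LPS, IFN-γ, untreated, IL-4. The first pair overlapped, LPS and IFN-γ and LPS were apart, and the last 3 groups were at or near background and have no order.

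Il10ra, the ligand-binding chain of the IL-10 receptor, was called lower with IL-4 and higher with IFN-γ and with LPS, and these calls depended on the processing. Its LPS change in unprimed cells was smaller than those of the cytokines. In untreated cells its level was 3.30 at the lowest, 3.49 at the median and 4.53 at the highest, the last in experiment G. After LPS it was 3.68, 4.62 and 5.01, and the ranges overlapped. The rise was 0.96 ± 0.22 (limma, adjusted p = 9.01e-04), or 1.94-fold, and it was positive on each of 5 slides that held both groups (0.38 to 1.61). These slides leave out the untreated arrays of experiments F and G. Between arrays of the same letter the difference ran from -0.30 in experiment C to 1.68 in experiment E. With quantile normalization the rise was 0.37 and was not called (adjusted p = 0.190).

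With IL-4 the Il10ra levels were 2.51, 2.51, 3.31 and 2.37 in experiments A, B, C and G, of which 3 lay below all untreated arrays. The difference was -0.99 ± 0.26 (limma, adjusted p = 0.0125). It was not called with normexp background correction (-1.03, adjusted p = 0.241) or without the IL-4 array of experiment G (-0.88, adjusted p = 0.0602). Median scaling (-0.89, adjusted p = 0.142) and the experiment letter as a block (-0.94, adjusted p = 0.0631) also lost this call. Only the experiments that hold both groups gave -1.14 (adjusted p = 0.0933). With IFN-γ the levels were 4.53, 4.76 and 4.36 in experiments E, F and G, above 6 of 7 untreated arrays, while that of experiment G (4.53) lay among them. The difference was 0.89 ± 0.29 (limma, adjusted p = 0.0238), and 1.18 relative to the median of all genes. It was not called with quantile normalization (0.55, adjusted p = 0.187) or without the IFN-γ array of experiment F (0.79, adjusted p = 0.108) or E (0.90, adjusted p = 0.0725). The primed states differed directly: Il10ra with IL-4 minus that with IFN-γ was -1.88 ± 0.32, or 3.67-fold (limma, adjusted p = 6.25e-05), and it was the only member called, against 27.9% of all genes. All 4 IL-4 arrays lay below all 3 IFN-γ arrays.

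After LPS this gap was no longer called. The levels were 4.86, 3.96, 4.75 and 5.06 with IL-4 and LPS in experiments A, B, C and G, and 5.19, 5.42 and 5.15 with IFN-γ and LPS in experiments E, F and G. The difference was -0.60 ± 0.32 (limma, adjusted p = 0.178, 95% interval -1.26 to 0.06). Within IL-4-primed cells LPS raised Il10ra by 1.98 ± 0.30, or 3.95-fold (limma, adjusted p = 6.84e-06), and within IFN-γ-primed cells the difference was 0.70 ± 0.34, which was not called (adjusted p = 0.219). It was 0.66, 0.67 and 0.79 in experiments E, F and G, each pair on 1 slide, and was called with slide as a block (0.70, adjusted p = 0.0448) and with array weights (0.71, adjusted p = 0.0227), but not with the experiment letter as a block (adjusted p = 0.288). The LPS change after IL-4 exceeded that in unprimed cells by 1.02 ± 0.37 (limma, adjusted p = 0.273) and that after IFN-γ by 1.28 ± 0.45 (adjusted p = 0.117). The latter was called with slide as a block (1.28, adjusted p = 0.0163), scan day as a block (adjusted p = 0.0262), array weights (1.33, adjusted p = 0.00690) and without the IL-4 and LPS array of experiment B (1.51, adjusted p = 0.0398). Against LPS alone, IL-4 and LPS differed by 0.04 ± 0.26 (adjusted p = 0.965, interval -0.50 to 0.58). The order of the means was IFN-γ and LPS, IL-4 and LPS, LPS, IFN-γ, untreated, IL-4, and each neighbouring pair overlapped except the first.

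Il10rb, the shared chain, was called in none of the 12 comparisons by limma, and in none was its unadjusted p under 0.05. Its group means ran from 5.65 ± 0.17 (n = 4) with IL-4 to 5.94 ± 0.23 (n = 3) with IFN-γ and LPS. All neighbouring groups in this order overlapped. After LPS alone the difference from untreated was 0.11 ± 0.13 (95% interval -0.15 to 0.37), so a rise of the size seen for Il10ra lay outside it. Over the 12 comparisons the differences ran from -0.26 to 0.18, and their intervals from -0.64 to 0.69. With quantile normalization the LPS difference turned to -0.66 and was called (adjusted p = 7.37e-05). A dimmer second Il10rb probe was called in none of the 12 comparisons either.

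Among the other cytokines of the family, the probes for Il20 and Il22 were well above background on 0 and 1 arrays and were not tested, and Ifnl2 was not on the array under that name. Il24, also of the IL-20 branch, and Ifnl3, a λ interferon near-identical to Ifnl2 and therefore uncertain, were called in none of the 12 comparisons by limma. At unadjusted p under 0.05 Il24 passed in 2 and Ifnl3 in 0. Among the other receptor chains Il22ra2 and Il20ra were above background on 0 and 1 arrays, and Il22ra1 and Ifnlr1 were called in none, with 2 and 0 at unadjusted p under 0.05.

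Il20rb, a chain of the receptors for IL-19, IL-20 and IL-24, rose with LPS and differed between priming states after it. Its level was between -1.34 and -1.01 in untreated cells and between 1.71 and 2.47 after LPS, a rise of 3.34 ± 0.16 (limma, adjusted p = 1.18e-14). It was between 3.45 and 3.77 with IL-4 and LPS, 1.49 ± 0.19 above LPS alone (limma, adjusted p = 5.00e-06), and between 0.07 and 1.30 with IFN-γ and LPS, a difference of -1.39 ± 0.21 from LPS alone (limma, adjusted p = 2.07e-05). These groups did not overlap. The LPS change in IFN-γ-primed cells minus that in unprimed cells was -2.17 ± 0.29 (limma, adjusted p = 2.39e-05). IL-4 and IFN-γ alone gave 0.87 ± 0.19 (adjusted p = 0.00219) and 0.78 ± 0.21 (adjusted p = 0.00599), and both calls were lost with normexp background correction (0.74, adjusted p = 0.0599 and 0.58, adjusted p = 0.125) and with the mean of all probes (0.17, adjusted p = 0.844 and -0.0052, adjusted p = 0.992). The IL-4 call was also lost with median scaling (0.96, adjusted p = 0.0706). Without the IFN-γ array of experiment G the IFN-γ difference was 0.54 and not called (adjusted p = 0.0841). With the mean of all Il20rb probes both differences from LPS alone (0.86, adjusted p = 0.109 with IL-4 and -0.77, adjusted p = 0.133 with IFN-γ) and the smaller LPS change (-0.76, adjusted p = 0.533) were not called.

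Downstream of the IL-10 receptor, the 5 signalling genes reported here (Jak1, Tyk2, Stat3, Socs1, Socs3) all rose with LPS, with a median of 2.87 against 0.05 for all genes. The shares of all genes called were 42.4% with LPS, 25.9% with IFN-γ and 11.3% with IL-4. Against LPS alone they were 8.97% with IL-4 and LPS and 22.8% with IFN-γ and LPS. Socs3 rose by 8.58 ± 0.25 (limma, adjusted p = 1.20e-18), Socs1, an inhibitor of interferon and IL-4 signalling, by 5.65 ± 0.19 (adjusted p = 1.13e-17) and Stat3 by 2.87 ± 0.22 (adjusted p = 4.16e-11). With IFN-γ alone 5 of 5 rose as well (median 1.52 against -0.29 for all genes), among them Socs1 by 5.93 ± 0.24 and Socs3 by 4.92 ± 0.33. With IL-4 alone 1 of 5 was called, Socs1, which rose by 5.07 ± 0.22 (limma, adjusted p = 4.75e-14). Socs3 was not called with IL-4. In cells with LPS, IL-4 priming gave no call among the 5 (median -0.19 against 0.08 for all genes) and IFN-γ priming 1, Socs1, which was higher. In IFN-γ-primed cells the LPS change was smaller than in unprimed cells for 4 of 5, against 8.33% of all genes called in either direction. The difference was -5.13 ± 0.34 for Socs1 (limma, adjusted p = 5.66e-10) and -4.57 ± 0.46 for Socs3 (adjusted p = 4.56e-07).

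The counts in the lists that follow stand against the shares of all genes called: 42.4% with LPS, 11.3% with IL-4, 25.9% with IFN-γ, and against LPS alone 8.97% with IL-4 and LPS and 22.8% with IFN-γ and LPS. Of 15 genes known to rise with IL-10 in macrophages, 11 rose and 3 fell with LPS (median 3.34 against 0.05 for all genes). The rises were largest for Socs3, Il1rn, which encodes the IL-1 receptor antagonist (6.04 ± 0.29), Tnip3 (5.22 ± 0.24) and Arid5a (4.47 ± 0.30). Those that fell were Ddit4, Il21r and Cd163, a scavenger receptor of hemoglobin complexes, all named after their values were seen. Cd163 fell by 2.45 on the log2 scale (limma, adjusted p = 1.13e-07), and with normexp background correction its change was -0.85 and not called (adjusted p = 0.262). With IFN-γ 10 rose and 1 fell (median 1.35 against -0.29), and the one that fell was again Cd163, at least 15.9-fold, since no IFN-γ array was above background (limma, adjusted p = 1.05e-11). With IL-4 the genes Nfil3, Cd163, Etv3, Tnip3 and Zfp36 rose and Il1rn fell, 5 against 1 (median 0.20 against 0.01). The Cd163 rise was 1.91 ± 0.34 (limma, adjusted p = 2.89e-04). It was 1.34 and not called with normexp background correction (adjusted p = 0.342). Socs3, Nfil3 and Stat3 stand in more than 1 of these lists.

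Where Il10 was lower, after LPS in IL-4-primed cells, 1 of these 15 genes was higher and 3 were lower than with LPS alone, and 11 were not called (median -0.19 against 0.08 for all genes). The differences were -1.95 ± 0.32 for Gadd45g (limma, adjusted p = 1.68e-04), -1.43 ± 0.32 for Il4ra, the IL-4 receptor chain (adjusted p = 0.00422), and -0.85 ± 0.22 for Sbno2 (adjusted p = 0.0133). Cd163 was higher by 1.54 ± 0.34 (limma, adjusted p = 0.00379). With normexp background correction the calls of Cd163 (0.62, adjusted p = 1.00) and Sbno2 (-0.83, adjusted p = 0.172) were lost. With only the experiments that hold both groups those of Il4ra (-1.37, adjusted p = 0.223), Cd163 (1.55, adjusted p = 0.106) and Sbno2 (-0.72, adjusted p = 0.253) were lost. Sbno2 was also not called without the IL-4 and LPS array of experiment G (-0.70, adjusted p = 0.0787). In IFN-γ-primed cells after LPS Ddit4, Hmox1 and Zfp36 were higher and Cd163, Il4ra and Tnip3 lower, 3 each (median -0.01 against -0.23), with Ddit4 higher by 3.19 ± 0.48 (limma, adjusted p = 2.73e-05). With only the experiments that hold both groups Ddit4 was at 3.52 (adjusted p = 0.0573).

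**Figure D3:**
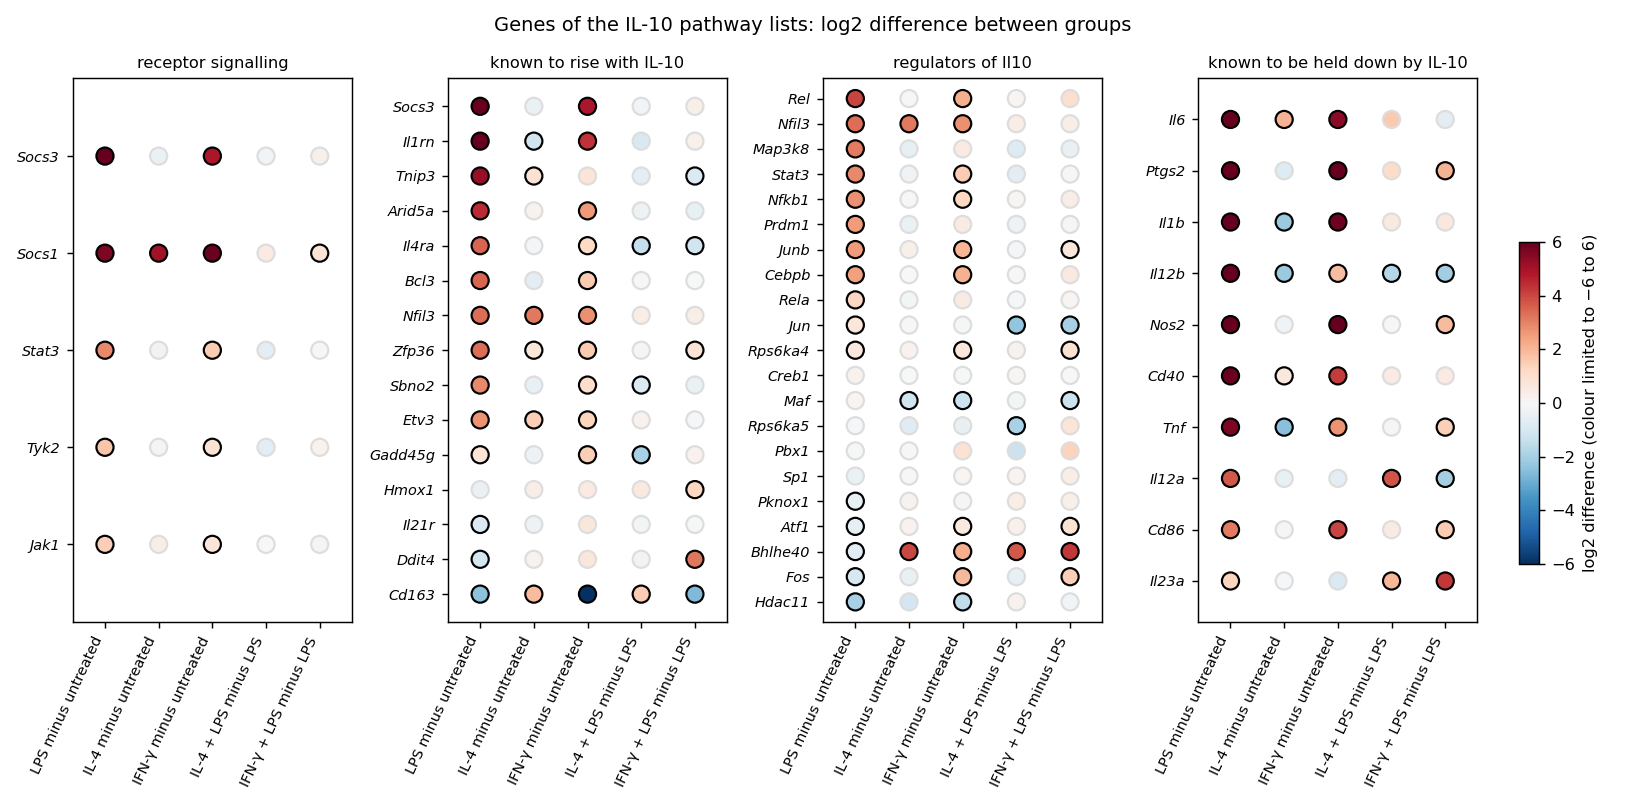
Each dot is the log2 difference of a gene in 1 of 5 comparisons (red higher, blue lower, colour limited to -6 to 6), and a black ring marks adjusted p under 0.05. Genes are ordered by their LPS change within the 4 lists. The LPS and IFN-γ columns are ringed for all 5 signalling genes, and the IL-4 + LPS column has none for them.

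Of 21 genes known to regulate Il10 transcription, 11 rose and 5 (Hdac11, Fos, Bhlhe40, Atf1 and Pknox1) fell with LPS (median 0.64 against 0.05 for all genes). Hdac11 was well above background on 4 arrays, all untreated, so it passed the filter only through the group where it was high. With LPS put at its floor the Hdac11 fall was at least 1.08-fold. The rises were largest for Rel, an NF-kappaB subunit (4.06 ± 0.40), Nfil3, a bZIP repressor (3.36 ± 0.32), Map3k8, the kinase upstream of ERK after LPS (3.10 ± 0.24), and Stat3. With IL-4 alone 2 rose and 1 fell of 21 (median -0.03 against 0.01), a share near the 11.3% of all genes called. Bhlhe40, a repressor of Il10 in T cells, rose by 4.01 ± 0.32 (limma, adjusted p = 1.24e-09) and Nfil3 by 3.17 ± 0.37, and Maf, an activator of Il10, fell by 1.18 on the log2 scale (adjusted p = 0.00375). With IFN-γ alone 10 rose and 2, Maf and Hdac11, fell (median 0.59 against -0.29), with Nfil3 (2.75 ± 0.41), Rel (2.19 ± 0.52), Bhlhe40 (2.18 ± 0.35) and Cebpb (2.15 ± 0.25) the largest. The Hdac11 fall was at least 1.72-fold, since no IFN-γ array was above background. Maf fell by 1.27 on the log2 scale (limma, adjusted p = 0.00214) and is named after its values were seen. With normexp background correction Rel was at 0.78 and not called (adjusted p = 0.367), and with median scaling Maf at -0.82 (adjusted p = 0.0733).

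The same regulators were compared after LPS. With IL-4 priming 1 was higher and 2 lower of 21 (median 0.03 against 0.08), where 8.97% of all genes were called: Bhlhe40 was higher by 3.74 ± 0.32 (limma, adjusted p = 1.25e-08), and the differences were -2.35 ± 0.26 for Jun, an AP-1 subunit (adjusted p = 6.83e-07), and -1.93 ± 0.33 for Rps6ka5, the kinase MSK1 (adjusted p = 2.68e-04). With IFN-γ priming Bhlhe40, Fos, Rps6ka4, Atf1 and Junb were higher and Jun and Maf lower, 5 against 2 (median 0.41 against -0.23). The difference was 4.22 ± 0.35 for Bhlhe40 (limma, adjusted p = 5.19e-09), -1.98 ± 0.28 for Jun (adjusted p = 1.34e-05) and -1.30 ± 0.30 for Maf (adjusted p = 0.00201). Rps6ka5 lost its call with normexp background correction (-0.99, adjusted p = 0.119), and Maf with only the experiments that hold both groups (-1.33, adjusted p = 0.104). The Maf level after LPS was 4.67 ± 0.45 (n = 4) with IL-4, 4.84 ± 0.51 (n = 7) without priming and 3.54 ± 0.62 (n = 3) with IFN-γ.

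Of 10 inflammatory genes that IL-10 is known to hold down, 10 rose with LPS (median 7.08 against 0.05 for all genes), led by Il6, which rose at least 2565-fold because no untreated array was above background, Ptgs2 (11.22 ± 0.40), Il1b (9.77 ± 0.45) and Il12b (8.92 ± 0.42). With IFN-γ alone 8 rose and 0 fell (median 4.11 against -0.29). Among them rose Ptgs2, the inducible cyclooxygenase, by 8.94 ± 0.51, Nos2 by 7.02 ± 0.62 and Il1b by 5.86 ± 0.58. With IL-4 alone Il6 and Cd40 rose and Tnf, Il1b and Il12b fell, 2 against 3 (median -0.36 against 0.01), of which Tnf fell by 2.49 on the log2 scale (limma, adjusted p = 1.70e-05). No untreated array was above background for Il6 and no IL-4 array for Il12b. With these groups put at their floor, the Il6 rise was at least 1.43-fold and the Il12b fall at least 1.13-fold. With only the experiments that hold both groups Tnf was at -2.03 (adjusted p = 0.0562). After LPS with IL-4 priming 2 (Il12a and Il23a) were higher, 1 (Il12b) was lower and 7 were not called (median 0.54 against 0.08). Il12a, a subunit of IL-12, was higher by 3.80 ± 0.50 (limma, adjusted p = 9.77e-06). With IFN-γ priming Il23a, Ptgs2, Nos2, Cd86 and Tnf were higher and Il12b and Il12a lower, 5 against 2 (median 1.05 against -0.23). Il23a was higher by 4.23 ± 0.67 (limma, adjusted p = 4.68e-05), Ptgs2 by 2.09 ± 0.51 (adjusted p = 0.00387), and the differences for Il12b and Il12a were -2.10 ± 0.54 (adjusted p = 0.00555) and -2.04 ± 0.55 (adjusted p = 0.00833). With normexp background correction Il23a (1.97, adjusted p = 0.0761), Ptgs2 (1.85, adjusted p = 0.109) and Il12a (-0.88, adjusted p = 0.518) were not called, and without the IFN-γ and LPS array of experiment E neither was Il12b (-1.70, adjusted p = 0.0712).

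The genomic neighbours did not all share the members' changes. Of the 7 genes in the run around Il10, 5 were tested and 3 rose with LPS: Il10, Il19 and Mapkapk2, a kinase of the p38 pathway (2.50 ± 0.20, limma, adjusted p = 1.35e-10). Fcmr and Il24, on the far side of Il20, were not called. In this comparison 20.8% of all genes were called higher, and Il10 and Il19 are members themselves. Of the 4 genes of the receptor cluster that holds Il10rb, the other 3 rose with LPS: the interferon receptor chains Ifnar2 (1.26 ± 0.16, limma, adjusted p = 4.29e-07), Ifngr2 (1.25 ± 0.15, adjusted p = 1.08e-07) and Ifnar1 (0.96 ± 0.14, adjusted p = 4.15e-06). With IL-4 alone Ifnar2 fell by 0.99 on the log2 scale (limma, adjusted p = 6.61e-04).

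The genes most like each member were taken by Pearson correlation of log2 levels over the 28 arrays, which fall into 6 groups, so these values describe the treatment pattern. For Il10 they were Gramd1a (0.97), Ebi3, a subunit of IL-27 and IL-35 (0.96), the chemokine Ccl3 (0.96), a transcript listed as NAP056806-1 (0.96) and Zfp811 (0.95). For Il19 they were Col11a2 (0.97), Nudt17 (0.97), the metallothionein Mt2 (0.96), Vcan, which encodes the matrix proteoglycan versican (0.95), and Atp10a (0.95). For Il10ra they were Arl5c (0.97), Trim25 (0.94), Pfpl (0.94), Foxi2 (0.94) and Med12 (0.93). For Il10rb, which changed little, they were Dgkq (0.78), Golga5 (0.76), Pdia3 (0.76), Taok3 (0.74) and Sec61a1 (0.73). With group means removed the correlations ran from -0.25 to 0.43 for Il10, from 0.08 to 0.47 for Il19, from 0.67 to 0.88 for Il10ra and from 0.70 to 0.87 for Il10rb. With Spearman correlation 1 of 5 names stayed for Il10, 0 for Il19, 1 for Il10ra and 2 for Il10rb.

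**Figure D4:**
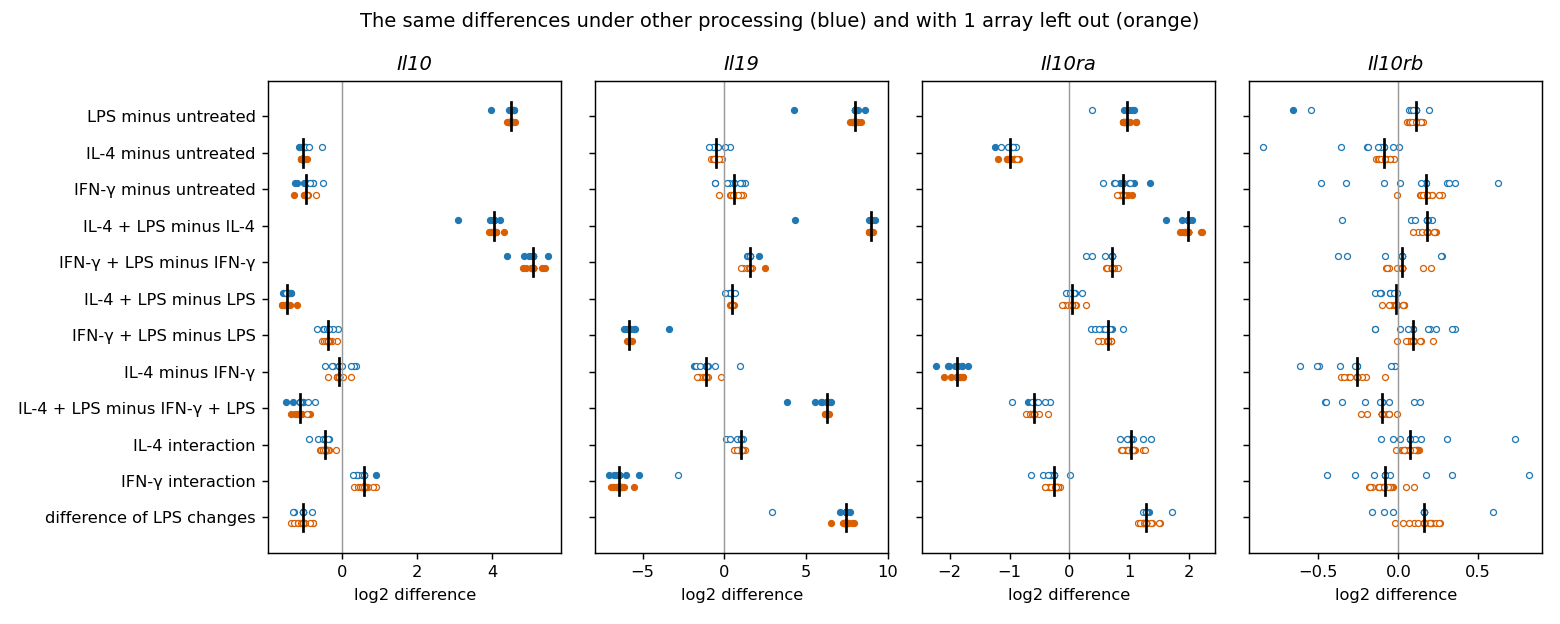
Log2 differences of the members in the 12 comparisons, with the reported value as a black bar, other processing in blue and fits with 1 array left out in orange. Filled points were called at adjusted p under 0.05. The LPS changes of Il10 stay filled throughout, and the points of Il10rb lie on both sides of 0 in most comparisons.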

How the data were processed

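RNA of 28 cultures was hybridised to single-colour Agilent arrays. Per the file headers, the deposited intensity values are processed signals of Agilent Feature Extraction 9.5.1, already background-subtracted by that software. The intensity of each of 41174 probes was divided by the array's 75th percentile (582 to 2113) and put on the log2 scale. Outlier spots (at most 414 per array) were left out and spots of a probe averaged. A gene was taken at its brightest probe and tested if well above background on at least 3 arrays, which left 22452. Differences came from limma 3.58.1 in R 4.3.3 (two-sided moderated test, all 28 arrays, no covariate, Benjamini-Hochberg adjustment over all genes tested), a script tested on simulated data. The deposited value table (log2 values in which every probe has an untreated median of 0) was set against the scanner files only.

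The members and the gene lists were chosen with earlier results of these data known, and 1 listed signalling gene is not reported here. Genes named with values beside the members were up to 4 of each list with the largest called change per comparison, the family cytokines and receptors whole, and for each member the 5 genes of highest Pearson correlation, and exceptions are marked. Deviations of arrays with the same experiment letter correlated at 0.154 to 0.726 for IL-4 with IL-4 and LPS. They correlated at 0.276 to 0.636 for IFN-γ with IFN-γ and LPS, and at -0.496 to 0.166 for untreated with LPS. The IL-4 arrays of experiments C and G and all IFN-γ arrays shared a slide with their partner of the same letter. No untreated array did so with its LPS partner, and letter and slide were not separated here. The alternatives were other background correction, scaling, filters, probe rules, sets of arrays, blocks and array weights, and each array left out. Promoter sequence is from RefSeq on GRCm38.p6, and 1 of the 4 members, Il19, matched that table.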

Additional observations from a re-analysis of the deposited data

Results flagged for a closer look

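The Il10 level of IL-4 experiment C, -2.97, lay apart from the other 3 arrays of its group. The Il10ra levels of LPS experiment C, 3.68, and of IL-4 experiment C, 3.31, lay apart from the rest of their groups as well. These are 3 of 16 groups of 4 to 7 arrays that were looked at, where chance gives about 1 in 20. The LPS change of Il19 differed between IFN-γ-primed and unprimed cells by -6.42, and between IL-4-primed and IFN-γ-primed cells by 7.40, both called by limma's test of the difference itself. The latter size rests on IL-4 arrays below background and was 5.71 with the IL-4 level put at its floor.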

How the results depend on the processing

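Of 48 member results 30 kept their side of the threshold under every alternative and left-out array. Of the 18 called, 9 kept their call throughout and none of the 18 reversed. The causes of the changes below were not tested. In this paragraph comparisons are first minus second group, and values are log2 differences.

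With normexp background correction calls were lost for Il10 in IL-4 minus untreated (-0.52), IFN-γ minus untreated (-0.91) and IL-4 + LPS minus IFN-γ + LPS (-0.90), for Il19 in the IFN-γ interaction (-2.80) and the difference of LPS changes (2.89), and for Il10ra in IL-4 (-1.03) and IFN-γ (1.00) minus untreated. Uncalled values that reversed were Il10 IL-4 minus IFN-γ (0.39), Il19 IL-4 (0.35) and IFN-γ (-0.58) minus untreated and IL-4 minus IFN-γ (0.93), and Il10rb IFN-γ + LPS minus IFN-γ (-0.38) and minus LPS (-0.15) and IL-4 + LPS minus IFN-γ + LPS (0.096). With quantile normalization calls were lost for Il10 IFN-γ minus untreated (-0.75) and Il10ra LPS (0.37) and IFN-γ (0.55) minus untreated. Reversed were Il10ra IL-4 + LPS minus LPS (-0.0022) and IFN-γ interaction (0.0056), and Il10rb LPS (-0.66, then called) and IFN-γ (-0.33) minus untreated, IL-4 + LPS minus IL-4 (-0.36), IFN-γ + LPS minus IFN-γ (-0.32), IFN-γ interaction (0.34) and difference of LPS changes (-0.034). With median scaling calls were lost for Il10 IL-4 (-0.94) and IFN-γ (-0.50) and Il10ra IL-4 (-0.89) minus untreated. Reversed were Il10ra IL-4 + LPS minus LPS (-0.055) and Il10rb IL-4 minus untreated (0.0056), IFN-γ + LPS minus IFN-γ (-0.081) and IL-4 interaction (-0.11). With the mean of all probes Il10rb reversed in LPS (-0.55) and IFN-γ (-0.49) minus untreated, the IFN-γ interaction (0.82) and the difference of LPS changes (-0.088), and Il20rb in IFN-γ minus untreated (-0.0052). The dimmer Il10rb probe was rejected as an outlier on the untreated array of experiment D, whose mean therefore held the brighter probe alone. The untreated means of the probes were 5.74 and -2.19, so the Il10rb values of this setting that involve untreated cells compare unlike probes.

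With only the experiments that hold every group compared, calls were lost for Il10 IFN-γ minus untreated (-0.75) and IL-4 + LPS minus LPS (-1.47) and Il10ra IL-4 (-1.14) and IFN-γ (0.75) minus untreated, and Il19 IFN-γ minus untreated (-0.59) and the Il10rb IL-4 interaction (-0.032) reversed. These fits use fewer arrays. With only the groups compared the call for Il10 IL-4 + LPS minus IFN-γ + LPS (-1.11) was lost. With slide as a block Il10 IL-4 minus untreated (-0.86) and IL-4 + LPS minus IFN-γ + LPS (-0.70) lost their calls, Il19 (1.53) and Il10ra (0.70) IFN-γ + LPS minus IFN-γ and the Il10ra difference of LPS changes (1.28) gained one, and Il10 IL-4 minus IFN-γ (0.33), Il19 IL-4 minus untreated (0.015) and Il10rb IFN-γ minus untreated (-0.091), IFN-γ + LPS minus LPS (-0.15) and IL-4 + LPS minus IFN-γ + LPS (0.14) reversed. With scan day as a block Il19 IL-4 minus IFN-γ (-1.89) and the Il10ra difference of LPS changes (1.28) were called, and Il10 IL-4 minus IFN-γ (0.0039) reversed. With array weights calls were gained for the Il10 IFN-γ interaction (0.90) and difference of LPS changes (-1.27), Il19 (2.13) and Il10ra (0.71) IFN-γ + LPS minus IFN-γ, and Il10ra IFN-γ + LPS minus LPS (0.71), IL-4 + LPS minus IFN-γ + LPS (-0.69) and difference of LPS changes (1.33). Il10 IL-4 minus IFN-γ (0.26) and the Il10rb IFN-γ interaction (0.17) and difference of LPS changes (-0.16) reversed.

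With the experiment letter as a replicate block, calls were lost for Il10 IFN-γ minus untreated (-0.83) and Il10ra IL-4 (-0.94) and IFN-γ (0.76) minus untreated, and no other member call changed.

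With 1 array left out, Il10 ran from -1.27 to -0.67 in IFN-γ minus untreated, from -0.36 to 0.24 in IL-4 minus IFN-γ and from -1.34 to -0.84 in IL-4 + LPS minus IFN-γ + LPS. Il19 ran from -0.31 to 1.12 in IFN-γ minus untreated and from 1.02 to 2.45 in IFN-γ + LPS minus IFN-γ. Il10ra ran from -1.20 to -0.84 in IL-4 minus untreated, from 0.79 to 1.04 in IFN-γ minus untreated, from -0.12 to 0.27 in IL-4 + LPS minus LPS and from 1.14 to 1.51 in the difference of LPS changes. Il10rb ran from -0.0062 to 0.27 in IFN-γ minus untreated, from -0.076 to 0.20 in IFN-γ + LPS minus IFN-γ, from -0.10 to 0.038 in IL-4 + LPS minus LPS, from -0.0066 to 0.22 in IFN-γ + LPS minus LPS, from -0.016 to 0.13 in the IL-4 interaction, from -0.18 to 0.097 in the IFN-γ interaction and from -0.022 to 0.26 in the difference of LPS changes.

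Of 63 results of the other genes named, 11 lost their call with normexp, 9 with only the experiments that hold every group, 3 with median scaling, 5 with the mean of all probes, 2 with only the groups compared and 1 with array weights.

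Counts of all genes called moved by over 1.5 times. Normexp gave 5530 for LPS (9515 as reported), 705 for IL-4 (2540), 2648 for IFN-γ (5805), 3513 for LPS after IL-4 (7018), 826 for LPS after IFN-γ (2692), 511 and 1997 for the primed states against LPS (2015 and 5118), 2985 for IL-4 minus IFN-γ (6258), 2464 after LPS (5743), and 39, 708 and 449 for the IL-4 interaction, the IFN-γ interaction and the difference of LPS changes (358, 1870 and 1221). Other settings gave more calls: array weights 4795 for IL-4, 8768 for IFN-γ, 5669 for LPS after IFN-γ, 8098 for IFN-γ + LPS minus LPS, 11955 for IL-4 minus IFN-γ, 9166 after LPS and 595, 3823 and 2970 for the last 3, and slide as a block 11594 for LPS after IL-4, 6973 for LPS after IFN-γ, 3833 for IL-4 + LPS minus LPS and 1065, 4167 and 3380 for the last 3. Scan day as a block gave 3935 for IL-4, 5227 for LPS after IFN-γ, 3226 for IL-4 + LPS minus LPS and 905, 3671 and 2451. Median scaling gave 1524, 1372, 1079, 182, 1040 and 707 for IL-4, LPS after IFN-γ, IL-4 + LPS minus LPS and the last 3. Only the experiments with every group gave 1502 for IL-4, 2752 for IFN-γ, 765 for LPS after IFN-γ, 457 and 1652 for the primed states against LPS, and 103 and 633 for the interactions. Only the groups compared gave 765 for LPS after IFN-γ, 1157 for IL-4 + LPS minus LPS, 2492 for IL-4 + LPS minus IFN-γ + LPS and 725 for the difference of LPS changes. Without 1 array, LPS after IFN-γ fell to 1763 (without IFN-γ G) and 1731 (without IFN-γ + LPS E), and IFN-γ + LPS minus LPS to 3218 (without IFN-γ + LPS E). The deposited value table was not run as an alternative, because its columns matched scanner files of other samples. Il19 without LPS lies near background, which limits the size of its changes.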
